A study of Mus musculus with 14 samples.

Results

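The 6 osteosarcomas whose titles begin with the letter m were compared with the 4 whose titles begin with c, 10 of the 14 samples of the series and 10 of its 12 osteosarcomas. Osteosarcoma is a bone tumour whose cells lay down bone matrix. Samples were placed by the first letter of the title alone, with no measured value. The m tumours were m710, m525, m849, m824, m825 and m520, and the c tumours were c2846-(1), c2984, c3193 and c3261. The series measured total RNA of tumours and of 1 cell line on Affymetrix expression arrays, 1 array per sample. All tumours of both groups arose in p53+/- mice, which carry 1 working copy of the p53 tumour suppressor gene. The remaining samples were the osteosarcomas o19 and o7-1, a tumour titled m718 and labelled rhabdomyosarcoma (rhabdomyosarcoma is a tumour of muscle-type cells), and mc3T3, a cultured osteoblast line without treatment. The labels do not state what the letters m, c and o stand for, nor the strain, sex, age or colony of the mice, nor whether each tumour came from a separate animal. The p-values below thus rest on the spread among these arrays, which may be partly technical. The comparison asks whether tumours that share an identifier letter also share expression differences, as animals of different inherited background or colony might. The sources used here do not say that the letters mark either.

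Inherited differences in RNA level usually arise from sequence variants close to the gene they affect, and laboratory mouse strains differ at many such sites. A stretch of chromosome inherited from another strain can therefore carry several such genes side by side. Loss of p53 also permits gains and losses of whole chromosomes, which shift the RNA of many neighbouring genes at once. Neither DNA sequence nor copy number was measured in this series.

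The osteosarcoma label was checked against 19 measured genes of osteoblasts and bone matrix. Their mean level, on the log2(signal + 30) scale used throughout, was 11.63 to 12.24 in the m tumours and 11.70 to 12.22 in the c tumours. It was 9.72 in mc3T3 and 8.64 in m718. The 2 groups overlapped in array quality. For beta-actin, the 3' signal over the 5' signal, which rises as RNA degrades, was 1.45 to 2.13 in the m tumours and 1.42 to 1.62 in the c tumours. The share of probe sets at a signal of 200 or more was 33.8% to 40.3% in m and 35.4% to 39.0% in c. Across genes, which are not independent replicates, the mean correlation between arrays was 0.909 within the m group (15 pairs), 0.897 within the c group (6 pairs) and 0.894 between the groups (24 pairs).

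The m tumours had higher RNA signals than the c tumours, past the test, for 3 genes: Rpgrip1, Ngdn and Tmem267. In the lower direction 0 genes passed limma, and 376 (3.18% of genes tested) had an unadjusted p under 0.05. Rpgrip1 encodes a protein that anchors the retinitis pigmentosa GTPase regulator at the connecting cilium of photoreceptors. Ngdn encodes neuroguidin, which binds the cap-binding protein eIF4E and belongs to the complex that makes the small ribosomal subunit. Tmem267 encodes a transmembrane protein, with no further role given here. The test was limma over 11815 genes, and a call needed a Benjamini-Hochberg adjusted p under 0.05 and a log2 difference of 1 or more. The 3 called genes were 0.0254% of the genes tested. Because these 3 genes were chosen with earlier results of the same data known, their values are a description of the 10 tumours.

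The windows around the annotated starts of the 3 genes are shown here because they differ in base composition while the genes moved the same way. The sequences are those of RefSeq on build GRCm38.p6, read 5′ to 3′ on the gene's strand. Each has 250 bases before the start in lower case and the 50 bases from the start in capitals. The window of Rpgrip1 lies at chr14:52110653-52110952 on the plus strand, that of Ngdn at chr14:55015204-55015503 on the plus strand. Tmem267 has 2 annotated starts, at chr13:119487836-119488135 and chr13:119488223-119488522, both on the plus strand.
Rpgrip1: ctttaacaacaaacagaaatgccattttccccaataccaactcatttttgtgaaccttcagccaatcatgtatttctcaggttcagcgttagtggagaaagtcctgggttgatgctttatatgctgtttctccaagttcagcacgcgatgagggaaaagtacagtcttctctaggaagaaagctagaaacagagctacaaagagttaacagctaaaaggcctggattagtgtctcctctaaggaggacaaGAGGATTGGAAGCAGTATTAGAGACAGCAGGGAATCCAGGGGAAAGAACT
Ngdn: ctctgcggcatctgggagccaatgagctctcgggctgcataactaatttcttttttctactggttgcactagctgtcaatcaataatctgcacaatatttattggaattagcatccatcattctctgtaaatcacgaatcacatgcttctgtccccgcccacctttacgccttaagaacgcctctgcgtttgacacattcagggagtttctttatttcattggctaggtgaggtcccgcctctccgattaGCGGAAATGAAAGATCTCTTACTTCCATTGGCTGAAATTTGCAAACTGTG
Tmem267, first start: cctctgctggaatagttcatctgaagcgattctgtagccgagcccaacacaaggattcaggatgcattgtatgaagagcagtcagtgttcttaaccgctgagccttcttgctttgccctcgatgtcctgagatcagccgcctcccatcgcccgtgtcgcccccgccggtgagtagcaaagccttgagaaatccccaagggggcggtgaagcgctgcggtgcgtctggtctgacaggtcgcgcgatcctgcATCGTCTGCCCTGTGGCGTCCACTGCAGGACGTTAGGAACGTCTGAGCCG
Tmem267, second start: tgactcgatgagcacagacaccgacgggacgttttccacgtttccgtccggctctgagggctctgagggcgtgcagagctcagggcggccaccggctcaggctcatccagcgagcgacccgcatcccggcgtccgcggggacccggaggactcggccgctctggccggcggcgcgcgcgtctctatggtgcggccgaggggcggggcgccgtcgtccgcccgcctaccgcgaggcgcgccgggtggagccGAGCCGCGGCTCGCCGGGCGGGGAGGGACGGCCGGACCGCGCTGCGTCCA
The window of Rpgrip1 had 42.7% G and C and 3 CpG pairs, and that of Ngdn 44.3% and 10 pairs. The Tmem267 windows had 58.7% and 22 pairs at the first start and 76.0% and 50 pairs at the second. Over 32851 windows of the same length the medians were 52.7% and 7 pairs. The 5-letter motif CCAAT, or its complement ATTGG on the same strand, occurred 3 times in the Rpgrip1 window, 4 times in the Ngdn window and 0 times in either Tmem267 window. Of all windows, 37.4% held it. A match is a description of the letters only.

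Rpgrip1 signal in the m tumours ran between 3161 (m520) and 10625 (m849), with a median of 5182. In the c tumours it was 529 in c2846-(1), 77.4 in c2984, 109 in c3193 and 62.4 in c3261. The lowest m tumour thus lay well above the highest c tumour, and c2846-(1) stood above the other c tumours. The means were 5631 ± 2760.05 in m (SD, n = 6) and 195 ± 224 in c (SD, n = 4). On the log2 scale m exceeded c by 4.96 ± 0.50 (SE), with a limma adjusted p of 0.00601. Without m525 and m824, the tumours with the most mature muscle RNA, the difference was 4.95 and the call was lost (adjusted p = 0.124). A signal near the c values could not be told from background, because no detection calls were used.

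Ngdn signal in the m tumours ran between 2769.8 (m520) and 4969.97 (m525), with a median of 3558. The c tumours had 974 in c2846-(1), 905 in c2984, 749 in c3193 and 1286 in c3261. No m tumour fell into the range of the c tumours. The means were 3646 ± 821 in m and 979 ± 226 in c (SD, n = 6 and 4), and the difference was 1.86 ± 0.22 (SE; limma adjusted p = 0.0186). The call was lost without m824, m825, c2846-(1), c2984 or c3193, with adjusted p between 0.0543 and 0.0878.

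Tmem267 was the dimmest of the 3. Its signal ran between 252 (m825) and 742 (m824) in the m tumours, with a median of 567.7, against 109, 101, 80.8 and 111 in c2846-(1), c2984, c3193 and c3261. The groups did not overlap. The means were 524 ± 177 in m and 101 ± 14.0 in c (SD, n = 6 and 4), with a difference of 2.02 ± 0.27 (SE; limma adjusted p = 0.0408). This call was lost without any 1 of 9 of the 10 tumours, with adjusted p between 0.064 and 0.144; without m825 it was 0.00685.

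**Figure D1:**
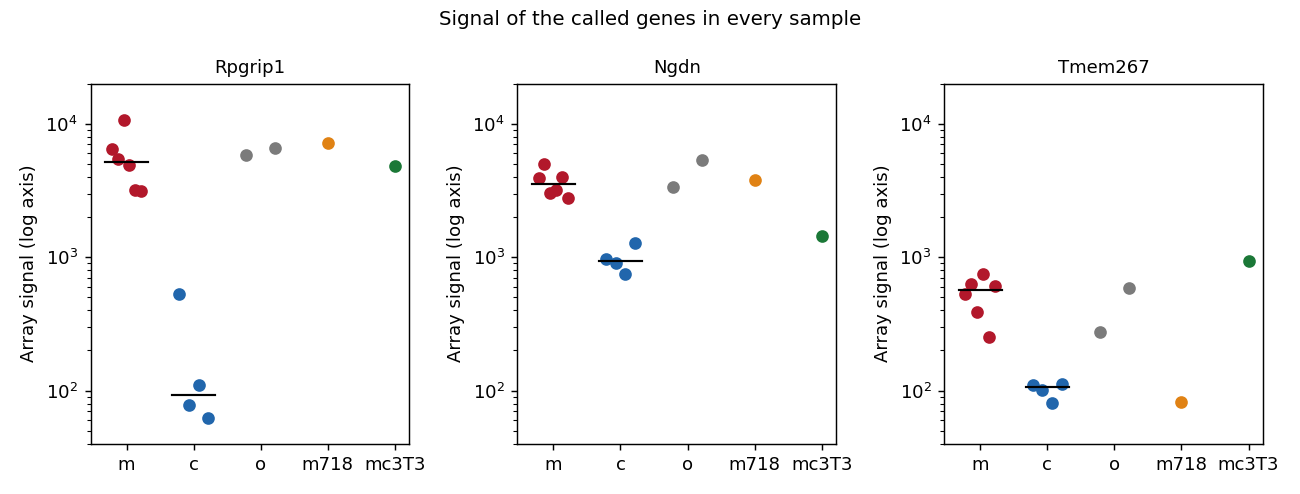
Array signal (vertical log axis, signal units) of Rpgrip1, Ngdn and Tmem267 in every sample. Each point is 1 array, and the black bars are the medians of the 6 m and the 4 c osteosarcomas. For each gene all 6 m points sit above all 4 c points, and the m718 point of Tmem267 sits at 82.2, among the c values.

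The samples outside the comparison were set beside these ranges, with no test. For Rpgrip1, o19 had a signal of 5882, o7-1 6563, m718 7136 and mc3T3 4820, all within the range of the m tumours. For Ngdn, o19 and o7-1 had 3359.7 and 5386, m718 3796 and mc3T3 1431. The mc3T3 value lay between the groups, just above the highest c tumour. For Tmem267, o19 had 276, o7-1 588 and mc3T3 929, whereas m718 had 82.2, within the range of the c tumours. The tumour titled m718 therefore matched the m osteosarcomas in level at Rpgrip1 and Ngdn and the c osteosarcomas at Tmem267. The strain of m718 is not given, and it is a different tumour type, so letter, tumour type and background cannot be told apart for it.

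The other probe sets of these genes were compared next. Adjusted over the 22479 probe sets, 2 were called, 0.0089% of those tested: those of Rpgrip1 (adjusted p = 0.0109) and of Ngdn (adjusted p = 0.0433). The single probe set of Tmem267 had an adjusted p of 0.0865 there. Rpgrip1 has 3 more probe sets on the array, whose highest signals on any of the 14 arrays were 56.0, 61.5 and 61.0. They were not tested, so the Rpgrip1 call rests on 1 of 4 probe sets. The second Ngdn probe set had signals between 786 and 1766 in m and between 635 and 1179 in c, which overlap. Its difference was 0.45 ± 0.26 (SE; limma adjusted p = 0.802), against 1.86 for the brighter one. With the mean of both probe sets, Ngdn had a difference of 1.15 and an adjusted p of 0.281. The brighter Ngdn probe set carries the array maker's suffix for probes that can match other transcripts too. Whether the 2 Ngdn probe sets read different transcripts was not tested.

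**Figure D2:**
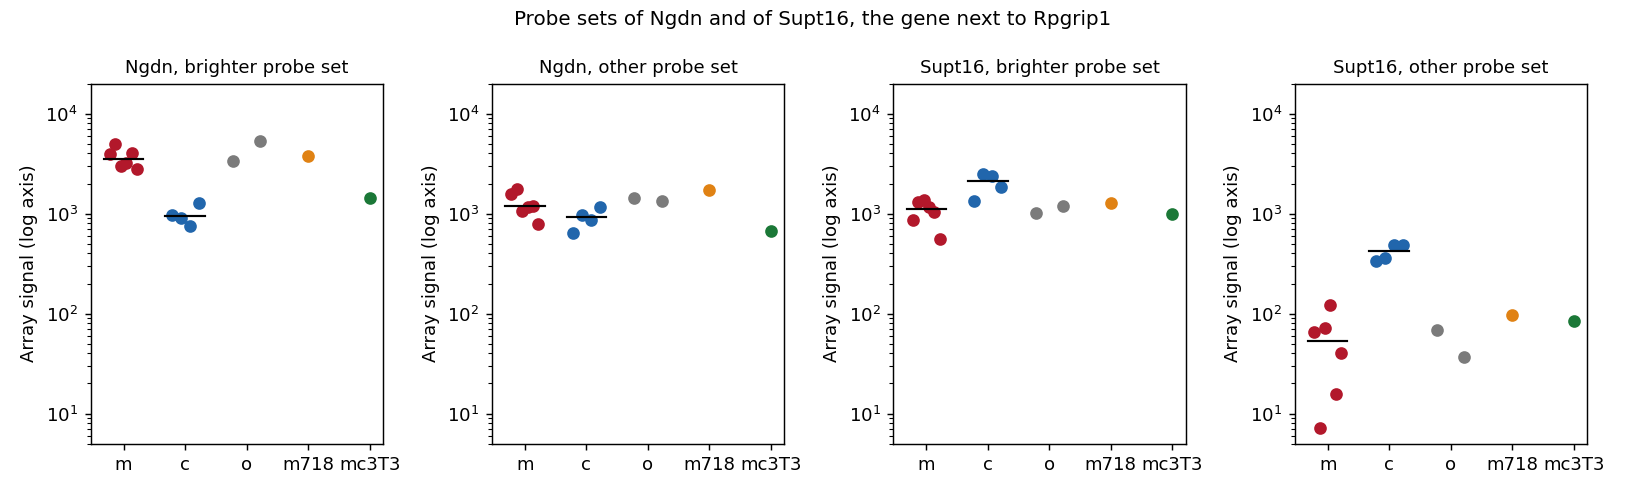
Array signal (vertical log axis, signal units) of both probe sets of Ngdn and both of Supt16, the tested gene next to Rpgrip1, in every sample. Points are arrays and black bars are group medians. The m and c points separate in the brighter Ngdn and the dimmer Supt16 probe set and overlap in the other 2.

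The chromosomal neighbours of the 3 genes did not pass the test with them. Among the 10 nearest tested genes on each side of Rpgrip1, Ngdn and Tmem267, 0 were called. Gene order was taken from the RefSeq annotation, and Tmem267 lies near the end of chromosome 13, with 10 tested genes before it and 2 after. Over all genes, 852 had an unadjusted p under 0.05, or 7.21%. Of these, 476 had higher signals in m (4.03% of genes tested) and the remaining 376 had lower signals.

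Around Rpgrip1, 6 of 20 neighbours (30%) had an unadjusted p under 0.05, 3 with higher and 3 with lower signals in m. The median difference over the 20 was -0.02, beside -0.002 over all genes. The gene before Rpgrip1 was Hnrnpc, an RNA-binding protein of the splicing machinery, with a difference of 0.21 ± 0.23 (SE). A dimmer tested Hnrnpc probe set went the other way, with -0.65 ± 0.26 (limma adjusted p over probe sets = 0.723). The gene after Rpgrip1 was Supt16, a subunit of the histone chaperone FACT, with -0.94 ± 0.28 (limma adjusted p = 0.542). Ndrg2 (1.72 ± 0.68) and the chromatin remodeller Chd8 (0.70 ± 0.26) had positive differences. Ndrg2 had 4743 in m525 and 1812 in m824, the tumours with the highest muscle levels, and 448 to 546 in the other m tumours, against 117 to 648 in the c tumours. Rab2b, a small GTPase, had -0.70 ± 0.29, and Oxa1l, an insertase of the mitochondrial inner membrane, had -0.91 ± 0.24. Of the 20 neighbours 10 had positive and 10 negative differences.

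Supt16 was looked at further after its values were seen. Its brighter probe set ran between 555 and 1365 in the m tumours, against 1329, 2507, 2400.4 and 1854 in c2846-(1), c2984, c3193 and c3261, and c2846-(1) lay inside the m range. Its dimmer probe set had 7.2 to 123 in the m tumours and 338 to 485 in the c tumours, with no overlap. The difference was -2.56 ± 0.37 (SE, limma adjusted p over probe sets = 0.0944). This probe set reached the signal filter for testing only on c arrays, the group where it is high. Its m values could not be told from background, because no detection calls were used. On that probe set m718 and mc3T3, like the o pair, were near the m values (the plot of Ngdn and Supt16 probe sets). The dimmer probe set of the gene next to Rpgrip1 thus had lower signals in m, short of the threshold. It was tested only because of its c values.

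The neighbour with the largest difference was Ang, angiogenin, a secreted ribonuclease, 9 tested genes before Rpgrip1. Its signal ran between 979.6 (m825) and 3027 (m710) in the m tumours, with a median of 1272. The c tumours had 666 in c2846-(1), 47.7 in c2984, 38.8 in c3193 and 97.1 in c3261. The groups did not overlap, and c2846-(1), which had the highest Rpgrip1 signal of the c tumours, also had the highest Ang signal. The difference was 3.25 ± 0.58 (SE; limma adjusted p = 0.160). Without c2846-(1) Ang passed, with an adjusted p of 0.00209. Its 2 other probe sets had differences of 1.99 ± 0.39 and 0.71 ± 0.38. The groups did not overlap on the former. On the latter they did, at 80.4 to 452 in m and 41.2 to 122 in c (limma adjusted p over probe sets = 0.785). Only the latter lacks a suffix for probes that can match other transcripts too. Outside the comparison Ang had 2149 in o19, 1384 in o7-1, 4386 in m718 and 1026 in mc3T3, each within or above the m range.

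Rnase4, the ribonuclease gene that follows Ang, is annotated with the same first start, at chr14:51090827-51091126 on the plus strand of GRCm38.p6. That window is shown, with 50 bases from the start in capitals, because both genes list it and their RNA signals differed in behaviour.
Ang and Rnase4: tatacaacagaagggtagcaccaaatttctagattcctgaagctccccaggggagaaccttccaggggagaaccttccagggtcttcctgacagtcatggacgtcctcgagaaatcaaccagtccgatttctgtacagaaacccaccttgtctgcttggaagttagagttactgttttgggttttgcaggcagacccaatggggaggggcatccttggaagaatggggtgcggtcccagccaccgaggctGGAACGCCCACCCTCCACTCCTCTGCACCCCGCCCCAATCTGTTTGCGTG
Rnase4 is also annotated with a second start. Its signal ran between 4485 and 20769.7 in the m tumours, with a median of 5222, and the c tumours had 7881 in c2846-(1), 9640.4 in c2984, 6332 in c3193 and 8661 in c3261. The m710 value was the highest, and the other 5 m tumours, at 4485 to 5691, lay below every c tumour, so that the overlap rests on m710. The difference without m710 was not computed. The difference was -0.33 ± 0.40 (SE; limma adjusted p = 0.895).

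Around Ngdn, 2 of 20 neighbours (10.0%) had an unadjusted p under 0.05, both with higher signals in m, and the median difference was -0.03. The gene before Ngdn was Myh7, the slow myosin heavy chain, with 1.85 ± 0.74 (SE; limma adjusted p = 0.651). Its signal was highest in m525, at 1815, the tumour with the highest level of mature muscle genes, a list that includes Myh7. In m824, which had the next highest level of that list, Myh7 was 115, the lowest of the m tumours. Ppp1r3e, a glycogen-targeting subunit of protein phosphatase 1, had 1.33 ± 0.35 (adjusted p = 0.482). The gene after Ngdn was Thtpa, a thiamine triphosphatase, with -0.17 ± 0.24.

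Around Tmem267, 2 of 12 neighbours (16.7%) had an unadjusted p under 0.05. These were 4833420G17Rik, the gene before it, with 0.78 ± 0.31 (SE; limma adjusted p = 0.651), and Zfp131, a zinc finger gene, with 0.73 ± 0.23 (adjusted p = 0.560). All 12 differences were positive, between 0.06 and 0.96, with a median of 0.27, beside -0.002 over all genes. Of the tested genes of chromosome 13, 58.4% had positive differences. Hmgcs1, the cytosolic synthase of the cholesterol pathway, follows Tmem267 and had 0.24 ± 0.19. Nnt, the mitochondrial transhydrogenase that is partly deleted in C57BL/6J mice, is among these neighbours. Its signal ran between 854 and 1796 in the m tumours, with a median of 1345, against 1134, 1424, 1329 and 509 in c2846-(1), c2984, c3193 and c3261. The groups overlapped, and the difference was 0.29 ± 0.32 (adjusted p = 0.883).

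**Figure D3:**
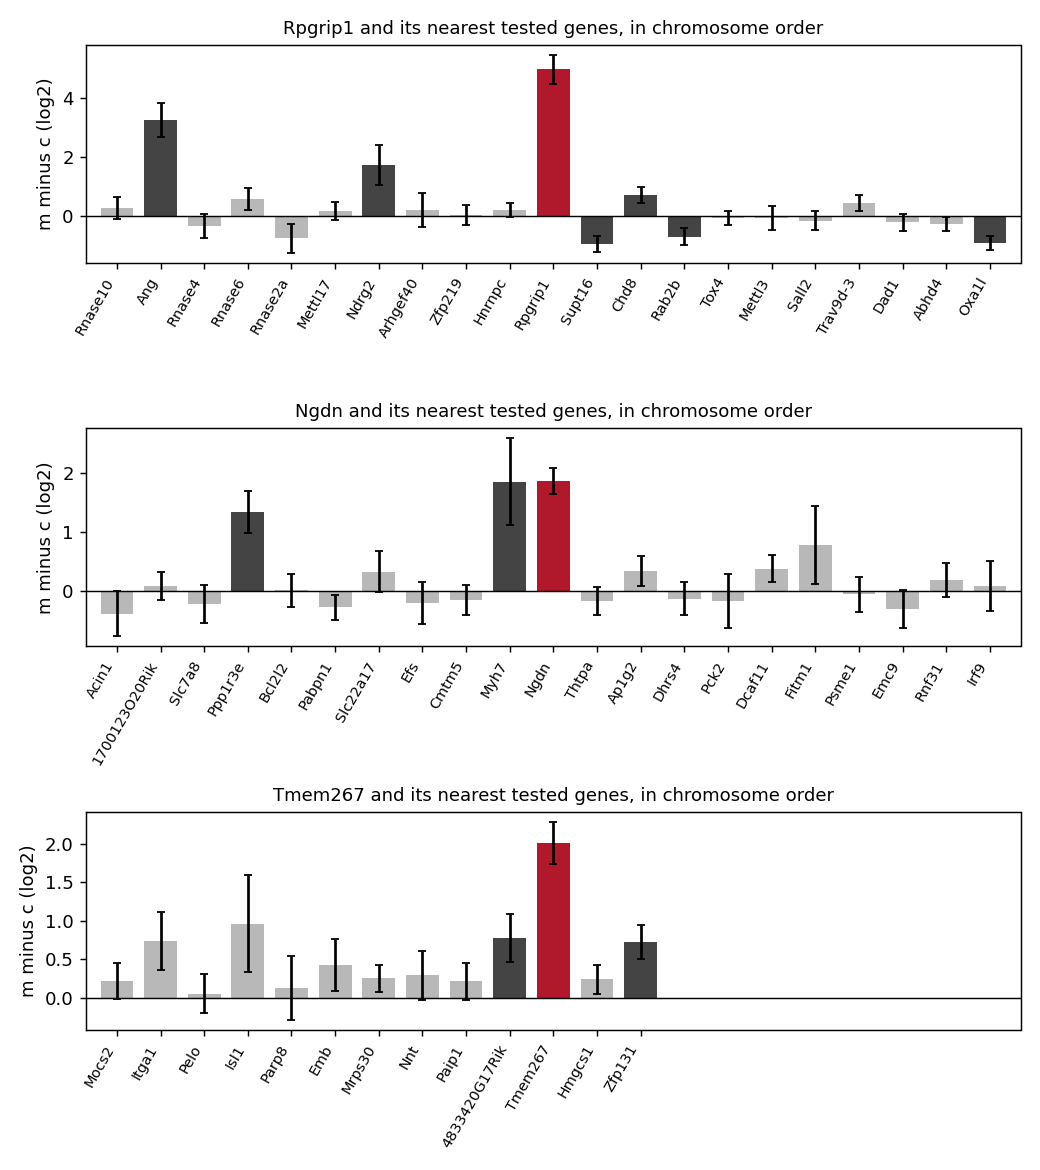
Difference of m minus c (vertical axis, log2 scale; error bars are SE) for Rpgrip1, Ngdn and Tmem267 in red and for their nearest tested genes in chromosome order. Dark bars have an unadjusted p under 0.05 and light bars do not. Light bars lie between Ang (3.25) or Ndrg2 (1.72) and Rpgrip1, whereas Myh7 (1.85) stands next to Ngdn.

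Rpgrip1 and Ngdn lie on the same chromosome, with 28 tested genes between them. Of these 28, 3 had an unadjusted p under 0.05 with higher and 3 with lower signals in m, beside 4.03% and 3.18% of all genes. The median difference of the 28 was -0.08. Of the 20 genes made up of the 10 with the smallest p in each direction, 4 lie on chromosome 14 (Rpgrip1, Ngdn, Ang and Gm26782), all with higher signals in m. Chromosome 14 holds 3.42% of the 11799 tested genes with a chromosome position. Gm26782, a predicted gene, had 2.14 ± 0.44 (SE; limma adjusted p = 0.289). The stretch of 45 tested genes that starts with Gm26782 and ends with Ngdn, both included, was bounded after the values were seen. With Gm26782, Ang, Rpgrip1 and Ngdn themselves counted, it held 8 genes with higher and 3 with lower signals at an unadjusted p under 0.05. Over all genes these shares were 4.03% and 3.18%. The 4 named genes are among the 8, and Gm26782 and Ngdn set the ends, so part of the count was fixed by the choice. Ttc5 lies just outside, 17 tested genes before Rpgrip1 against 15 for Gm26782. It was lower in m, with -1.01 ± 0.27 (SE; limma adjusted p = 0.482).

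Beyond the 3 called genes, the 7 next genes with higher and the 10 with lower signals in m did not pass. Over all genes tested, 95 had every m tumour above every c tumour (0.804%) and 80 had every m tumour below (0.677%). In these lists 9 of 10 genes with higher and 8 of 10 with lower signals did not overlap between the groups, a count that the choice by smallest p brings with it. The spread of differences over all genes had its 5th and 95th percentiles at -0.61 and 0.73, and 452 genes (3.83%) differed by at least 1.

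Among those with lower signals, the secreted Wnt inhibitor Wif1 had the smallest p. Its signal ran between 635 (m849) and 2338 (m520) in the m tumours, with a median of 1569.99, against 7233, 10599, 5286 and 17171 in c2846-(1), c2984, c3193 and c3261. The groups did not overlap. The difference was -2.69 ± 0.42 (SE; limma adjusted p = 0.111). The o pair had 3556 and 3036, between the groups, and m718 and mc3T3 had 38.1 and 4.5.

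Of the signalling ligands, Bmp2, which drives bone formation, ran between 182 and 565 in the m tumours (median 433), against 1064, 1023, 964 and 1376 in c2846-(1), c2984, c3193 and c3261. Its difference was -1.46 ± 0.29 (SE; limma adjusted p = 0.258). Tgfb2, a growth factor stored in bone matrix, ran between 482 and 848.6 in m (median 709), against 1857, 1145, 1633 and 1473 in the same c tumours, a difference of -1.16 ± 0.23 (adjusted p = 0.264). Neither gene overlapped between the groups. All 4 Tgfb2 probe sets had negative differences, between -1.62 and -1.16. 

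The remaining genes with lower signals were Pik3ap1, an adaptor of phosphoinositide 3-kinase (-1.54 ± 0.25, limma adjusted p = 0.111), the cytoskeletal regulator Dpysl3 (-1.11 ± 0.20, 0.160), the carboxylesterase Ces1g (-2.45 ± 0.47, 0.258), Mttp, which loads lipid onto lipoproteins (-1.82 ± 0.37, 0.289), Thnsl1 (-0.996 ± 0.21, 0.355), Erdr1 (-2.53 ± 0.56, 0.412) and the lactate transporter Slc16a1 (-1.02 ± 0.23, 0.426). Probe sets disagreed for Pik3ap1, whose second had a difference of 0.77 ± 0.37, and for Erdr1, whose second had -0.08 ± 0.44. With the mean of its probe sets Erdr1 had -1.31. Ces1g was at most 33.2 units on the m arrays, where it could not be told from background. Mttp was 97.9 in m710 and 2.7 to 29.3 in the other m tumours, values as low as those of Ces1g. The other Mttp probe set, which did not reach the filter, had a difference of -0.57 with overlapping groups. With no filter that probe set stood for Mttp (limma adjusted p = 0.813). All 3 Dpysl3 probe sets had negative differences.

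Among those with higher signals, Enpep, a cell surface peptidase that cleaves angiotensin II, ran between 301 (m525) and 3095 (m825) in the m tumours, with a median of 766. The c tumours had 71.7, 14.3, 109.6 and 75.2 in c2846-(1), c2984, c3193 and c3261. The groups did not overlap, and the difference was 3.21 ± 0.55 (SE; limma adjusted p = 0.160). The others were Zfp979, a zinc finger gene (1.36 ± 0.24, 0.160), Ctnnal1, an alpha-catenin relative (0.96 ± 0.17, 0.160), the phospholipid transporter Abcb4 (0.96 ± 0.19, 0.258) and the slow skeletal troponin Tnni1 (2.69 ± 0.53, 0.258). Ctnnal1 was at most 175 in the m tumours and 72.7 in the c tumours. It reached the filter only through m718 (370) and mc3T3 (267). Its other probe set, not tested, had a difference of 0.42 with overlapping groups. Zfp979 reached the filter only on m arrays, the group where it is high, with at most 302 there and 195 in o19.

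Over these 20 genes, o19 lay nearer the m mean for 14 and o7-1 for 16, and m718 and mc3T3 for 12 and 14. For the 10 genes with higher signals in m, the counts of o19, o7-1, m718 and mc3T3 were 8, 7, 4 and 6. For the 10 with lower signals they were 6, 9, 8 and 8. A sample with little signal of a gene that is lower in m lies nearer the m mean, such as mc3T3 for Wif1 (4.5). For the 3 called genes, o19 and o7-1 lay nearer the m mean for 3 each, and m718 and mc3T3 for 2 each. The letter o samples were not in the fit that ranked these genes. Like all 14 arrays, they did enter the signal filter and the choice of the brightest probe set per gene. No test was made with them, since they are 2 tumours.

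Genes known to differ in level between inbred strains were set out as a list of 13, of which 10 were measured. Of these, 0 were called, and 1, Gbp2b, a guanylate-binding protein, had an unadjusted p under 0.05, beside 7.21% of all genes. Its signal was 3.9 to 69.3 in the m tumours (median 9.95), against 833 in c2846-(1), 62.8 in c2984, 8.5 in c3193 and 756 in c3261. In the c group 2 tumours stood above every m tumour and the other 2 lay within the m range, so that the letters did not split this gene. The difference was -2.14 ± 0.81 (SE; limma adjusted p = 0.632). In m718 Gbp2b had 819, the level of the high c tumours, while the o pair had 65.0 and 69.5. Ifi202b, an interferon-inducible gene, had -1.09 ± 0.64, and Alad, of haem synthesis, had -0.48 ± 0.33. Casp4 had -0.96 ± 0.82 and Glo1 -0.31 ± 0.26. Positive differences were found for Mx1 (0.50 ± 0.48), Wdfy1 (0.24 ± 0.22), Cox7a2l (0.21 ± 0.27) and Ide (0.07 ± 0.235). Of the 10 measured genes, 5 had positive and 5 negative differences.

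Another list held Y-linked and X-inactivation genes, of which 4 were measured and 0 had an unadjusted p under 0.05. Eif2s3y, on the Y chromosome, had 541 in m525 and 4.2 to 22.2 in the other m tumours, against 1.8 to 5.3 in the c tumours. Xist, the RNA of the inactive X chromosome, had 112 in m525, 1967 to 9250.4 in the other m tumours and 1312 to 8419 in the c tumours. The Y-linked gene Kdm5d had 179 in m525, against 3.0 to 25.3 in the other m tumours and 6.2 to 42.1 in the c tumours. Uty, also Y-linked, did not set m525 apart, with 31.9998 there, 5.2 to 50.5 in the other m tumours and 16.0 to 47.7 in the c tumours. The part of sex in the differences between the groups was not tested.

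In all, 27 gene lists with 323 measured members (counted once per list) were looked at, and 0 members were called. In 14 lists no member had an unadjusted p under 0.05. Among these were the 6 measured ciliary partners of Rpgrip1 (median difference -0.28) and the 20 processome and cap-binding partners of Ngdn (median 0.03). The partners therefore did not pass the test alongside the 2 genes.

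Mature skeletal muscle genes had the largest list difference. Of 25 members, 0 were called and 19 had an unadjusted p under 0.05 with higher signals in m, beside 4.03% of all genes tested. The 19 are not independent results. The median difference was 2.69, against -0.002 over all genes. Their mean level was 13.59 in m525, 12.68 in m824, 10.54 in m849 and 8.52 to 9.17 in the other m tumours, against 7.95, 9.60, 7.41 and 6.49 in c2846-(1), c2984, c3193 and c3261. The groups overlapped, and the summed signal of the list ran between 11970.2 and 469145 in m and between 2729 and 25779 in c. Myl1, a myosin light chain, had 3.19 ± 0.92 (SE; limma adjusted p = 0.542) and the troponin Tnnc2 3.45 ± 1.13 (0.574). In bulk tissue, more cells of a type and more RNA per cell cannot be told apart. Without m525 and m824, Rpgrip1 kept a difference of 4.95, Ngdn 1.79 and Tmem267 1.80, but none passed (limma adjusted p of 0.124, 0.197 and 0.259).

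Osteoclast genes mark the bone-resorbing cells. Of 16 measured, 8 had an unadjusted p under 0.05, all with higher signals in m, beside 4.03% of all genes tested. The median difference was 0.56, with 0 calls. The mean level was 11.36 to 12.21 in m and 10.76 to 11.54 in c, and the ranges overlapped. The chloride channel Clcn7 had 0.75 ± 0.20 (SE; limma adjusted p = 0.482), the fusion proteins Dcstamp and Ocstamp 1.33 ± 0.40 and 1.38 ± 0.43, and the proton pump subunit Atp6v0d2 1.13 ± 0.34. Clcn7 and Atp6v0d2 did not overlap between the groups, as for 0.804% of all genes in this direction.

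p53 target genes had 3 of 18 members with an unadjusted p under 0.05, all with higher signals in m (4.03% over all genes), and a median difference of 0.18. They were Gadd45a, a DNA damage response gene (1.43 ± 0.42, SE; limma adjusted p = 0.542), the desmosomal gene Perp (1.09 ± 0.33) and the receptor Eda2r (1.73 ± 0.68). Eda2r had 635 in m824, 317 in m525 and 12.6 to 104 in the other m tumours, and 3.7 to 26.1 in the c tumours. Its highest values thus fell in the 2 tumours with the highest muscle levels. Of the 19 osteoblast genes, 2 had an unadjusted p under 0.05, both with lower signals (3.18% over all genes). They were Dlx5, a bone transcription factor (-0.77 ± 0.25), and Smpd3, a sphingomyelinase needed for mineralisation (-0.72 ± 0.28). Over the 19 osteoblast genes the median difference was -0.06.

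Of 11 measured antioxidant and mitochondrial NADPH genes, the partners of Nnt, 1 (Idh2) had an unadjusted p under 0.05, beside 7.21% of all genes. Idh2, the mitochondrial isocitrate dehydrogenase, ran between 2487 and 4872 in the m tumours (median 3704). The c tumours had 26.0 in c2846-(1), 5329 in c2984, 71.7 in c3193 and 1546 in c3261. In the c group 2 of 4 tumours were near the bottom of the signal scale and 1 was above every m tumour. The difference was 2.98 ± 1.05 (SE; limma adjusted p = 0.603).

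**Figure D4:**
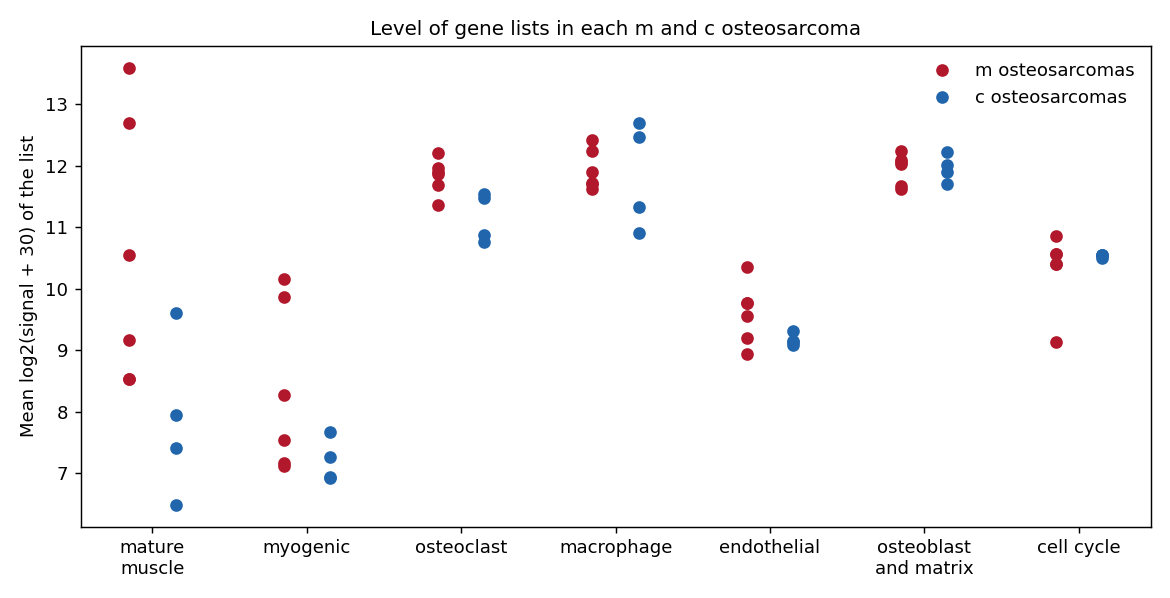
Mean log2(signal + 30) of the measured genes of 7 lists (vertical axis) in each m osteosarcoma (red) and c osteosarcoma (blue). Each point is 1 tumour. The groups overlap in every list shown, and the mature muscle list reaches 13.59 in m525 and 6.49 in c3261.

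Differences across whole chromosomes were described last, chosen after their values were seen. Chromosome 9 had 83 of 670 tested genes with higher and 10 with lower signals in m at an unadjusted p under 0.05, and a median difference of 0.22. Chromosome 5 had 16 with higher and 68 with lower signals of 761 genes, with a median of -0.19, and chromosome 18 had 3 and 27 of 295, with a median of -0.15. Chromosome 14 had 19 and 7 of 403 genes (6.45% in either direction, median 0.09), and chromosome 13 had 29 and 2 of 423 (7.33%, median 0.06). Both pooled shares were near the 7.21% of all genes. The directions were uneven, beside 4.03% higher and 3.18% lower over all genes. On chromosome 14, 9 genes had every m tumour above every c tumour and 1 had every m tumour below. On chromosome 13 these were 5 and 1, beside 0.804% and 0.677% of all genes. Relative to the mean of the 12 osteosarcomas, the chromosome 9 median was -0.17 in m710 and 0.10 to 0.23 in the other 5 m tumours, against -0.05, -0.26, -0.15 and -0.03 in c2846-(1), c2984, c3193 and c3261. Single tumours shifted on chromosomes in both groups, such as c3193 on chromosome 4 (-0.32) and m849 on chromosome 12 (0.28). The part of copy number in these values was not tested.

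**Figure D5:**
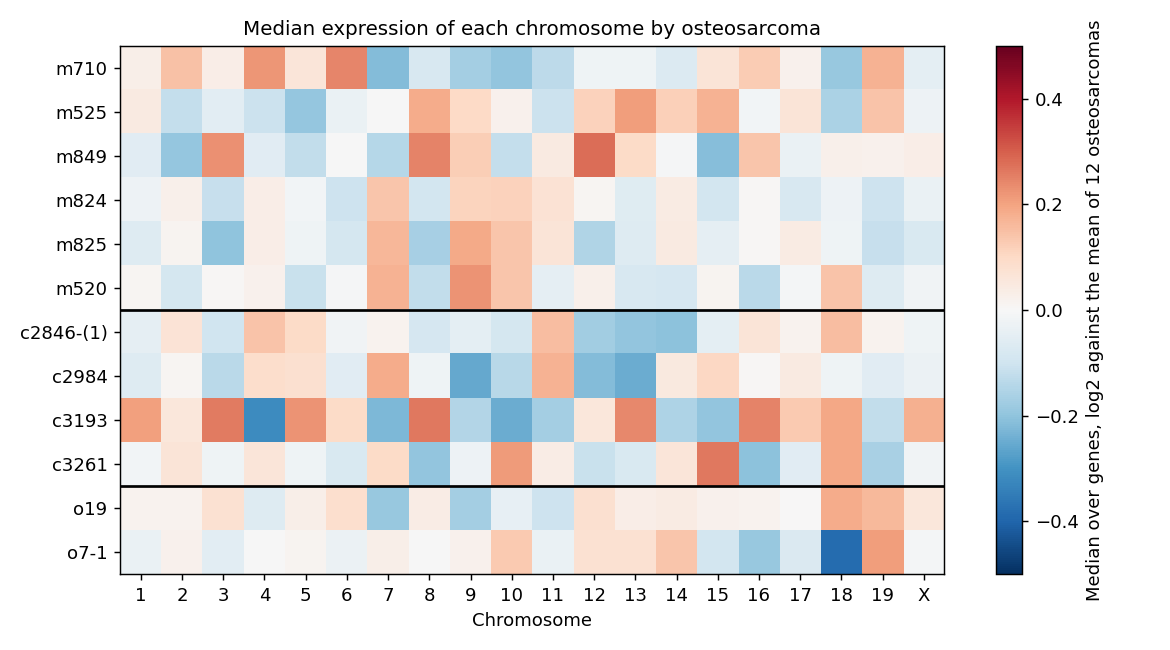
Median of log2(signal + 30) over the tested genes of each chromosome (columns) in each of the 12 osteosarcomas (rows, with m above c above o), relative to the mean of the 12. Red is higher and blue lower, on the scale of the colour bar. Shifts occur in single tumours of every letter, and chromosome 9 is above 0 in 5 of 6 m tumours and below 0 in 4 of 4 c tumours.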

How the data were processed

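Total RNA of 14 mouse samples was hybridised to Affymetrix arrays after biotin labelling, per the labels' protocols. The deposited values are array signal (intensity) per probe set on a linear scale, and the submitters' processing notes name the GCOS software. Its version and background step: not given in the sources used here. Their trimmed mean (2% off each end) was 500.0 on each array, so the arrays had been scaled before deposit. Precision is limited by the number of arrays.

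Titles gave the groups, since every description names mc3T3, also those of tumours; the title of c2984 spells the tumour type differently and was read as osteosarcoma. Replicates were numbered in accession order. The members and gene lists were chosen with earlier results of these data known.

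Values were analysed as log2(signal + 30), which understates the differences of low genes. Testing was limited to the 22479 probe sets that reached 200 on 1 or more of the 14 arrays. Gene names are those of the platform annotation, brought up to date with a GRCm38.p6 gene table for 34736 of 45101 probe sets. A gene was represented by its brightest probe set (11815 genes). The model was limma 3.58.1 in R 4.3.3 (lmFit and eBayes, two-sided, Benjamini-Hochberg over all genes) on the 10 tumours, with 8 residual and 3.65 prior degrees of freedom. The script was tested on simulated data. Named were the 3 genes of the rule, every called gene, the genes with the smallest p up to 10 in each direction, neighbours with an unadjusted p under 0.05 or next to the 3 genes, the sex and strain lists, and up to 4 genes per other list with the smallest p. Alternatives changed the pseudocount, filter, normalization, probe set rule, samples in the fit, variance model and fold threshold.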

Additional observations from a re-analysis of the deposited data

Results flagged for a closer look

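A tumour far from the others of its group was sought in 134 sets of values (genes, list levels and chromosome medians in the m and the c tumours), and 11 were found; chance gives about 1 in 20. All values are on the log2(signal + 30) scale, and none of their causes was tested. Ang was 11.58 in m710, against 9.98 to 10.51 in the other m tumours. Gm26782 was 7.26 in m520 and 8.78 to 9.51 in the other m tumours. The neutrophil and granulocyte list level was 11.56 in m525, against 7.11 to 8.69 in the other m tumours, and the erythroid list level in the same tumour was 9.78, against 6.27 to 7.55. The cell cycle and mitosis list level was 9.13 in m520, against 10.40 to 10.85 in the other m tumours, and 10.50 in c3261, against 10.55 in the other c tumours, a small gap within a narrow range. The hypoxia and glycolysis list level was 12.18 in m710, against 10.11 to 10.60 in the other m tumours. The level of the ciliary partners of Rpgrip1 was 7.74 in m520, against 8.38 to 8.56. Relative to the 12 osteosarcomas, the chromosome 6 median was 0.24 in m710, against -0.10 to -0.004 in the other m tumours. The chromosome 9 median was -0.17 in m710, against 0.10 to 0.23. The chromosome X median was 0.18 in c3193, against -0.03 to -0.02 in the other c tumours.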

How the results depend on the processing

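The 3 called genes became 2 with a pseudocount of 100, with no filter, with quantile normalization and with 12 osteosarcomas in the fit, 1 with the mean of the probe sets of a gene, and 0 without m525 and m824, where 569 genes had an unadjusted p under 0.05 in limma. Leaving out 1 tumour at a time gave 1 to 4 called genes. The 2 called probe sets became 1 with a pseudocount of 10, 1 with no filter and 0 without m525 and m824, and 0 to 5 when 1 tumour was left out. Rpgrip1 passed under 18 of 19 alternatives (adjusted p 2e-04 to 0.124), Ngdn under 12 (0.00484 to 0.281) and Tmem267 under 4 (0.00685 to 0.259). Tmem267 missed with a pseudocount of 100 (0.0527), no filter (0.0523), quantile normalization (0.0591), the mean of probe sets (0.0562) and 12 osteosarcomas (0.0506). Ngdn missed with the mean of its probe sets, and without m824 (0.062), m825 (0.0543), c2846-(1) (0.0792), c2984 (0.0878) or c3193 (0.0674). Rpgrip1 was the 1 called gene without m824, c2984 or c3193. Without m710 Ptgfr and Mttp passed as lower in m, and without m849 Pik3ap1 did. No difference of the 20 named genes changed sign under any alternative run. No paired analysis was possible because the labels give the tumours no shared replicate numbers.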
